A study of Mus musculus with 9 samples.

Results

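The 7 mature miRNAs described here are miR-10a-5p, miR-10a-3p, miR-10b-5p, miR-10b-3p, miR-196a-5p, miR-196b-5p and miR-615-3p, whose hairpins lie inside the Hox gene clusters. They were chosen by name and position, and all 7 were found among the 860 mature miRNAs measured. Small RNA was sequenced from subcutaneous fat of 9 mice, 3 in each genotype. Homo KO mice carried a homozygous and Hete KO mice a heterozygous knockout of AGO1 in endothelial cells, and the WT mice were their littermates. All mice were 24 weeks of age, after 16 weeks on a high fat, high sucrose diet begun at 8 weeks of age. AGO1 is an Argonaute protein, which holds a mature miRNA and guides it to its target mRNAs. The labels do not say which promoter drives the endothelial deletion, and the whole tissue was sequenced, in which endothelial cells are only a part, so that fewer cells of a type and less of a miRNA per cell cannot be told apart.

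Hox genes lie in 4 clusters and encode transcription factors that give cells their position along the body axis, and fat depots of different body regions keep different sets of active Hox genes. The miRNAs embedded in the clusters can be transcribed with their neighbours and repress Hox mRNAs among other targets. In the mouse, miR-196a directs cleavage of Hoxb8 mRNA in the embryo and promotes brown adipocyte formation in white fat by repressing Hoxc8, and miR-10 is abundant in endothelium, where in zebrafish it acts on new vessel growth. Only 1 depot was sampled, so these levels could not be set against another position of the body.

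The mature sequences are shown because they fall into 2 pairs of near-identical guide strands and a single miRNA. They come from RefSeq (GRCm38.p6), run 5′ to 3′, and the capitals mark the seed, bases 2 to 8, which selects targets.
miR-10a-5p: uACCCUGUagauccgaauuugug
miR-10b-5p: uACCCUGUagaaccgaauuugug
miR-10a-3p: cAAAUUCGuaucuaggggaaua
miR-10b-3p: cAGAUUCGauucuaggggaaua
miR-196a-5p: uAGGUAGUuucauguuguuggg
miR-196b-5p: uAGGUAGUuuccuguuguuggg
miR-615-3p: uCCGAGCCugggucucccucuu
miR-10a-5p and miR-10b-5p had the same seed and differed at 1 of 23 positions, U12A counted from the 5′ end (the base of miR-10a-5p first). miR-196a-5p and miR-196b-5p also shared a seed and differed at 1 of 22 positions, A12C (the base of miR-196a-5p first). No other miRNA in the files with a RefSeq sequence had either of these seeds, and the seeds of miR-10a-3p, miR-10b-3p and miR-615-3p were each found once. The 3p arms of miR-10a and miR-10b differed at 3 of 22 positions, A3G among them, which lies in the seed. How reads that match both members of a pair were assigned is not given in the sources used here, so the split within each pair is uncertain.

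The 6 hairpins lay in all 4 clusters. In the GRCm38 annotation (GENCODE vM21), Mir10a was on chromosome 11 at 96317165 to 96317274 (plus strand), between genes, 993 bases before Hoxb4. Mir10b was on chromosome 2 at 74726070 to 74726137 (plus strand), in an intron of the gene models of Hoxd3 and Hoxd4. Mir196b was on chromosome 6 at 52230081 to 52230165 (minus strand), in an exon of a Hoxa9 gene model. Mir615 was on chromosome 15 at 103014910 to 103015001 (plus strand), in an intron of Hoxc5. The sequence of miR-196a-5p is encoded at 2 places, Mir196a-1 on chromosome 11 at 96265164 to 96265265 (plus strand), between Hoxb13 and Hoxb9, and Mir196a-2 on chromosome 15 at 102973350 to 102973434 (plus strand), in an intron of Hoxc5 between Hoxc10 and Hoxc9. Its value is therefore a sum over HoxB and HoxC that cannot be divided.

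**Figure D1:**
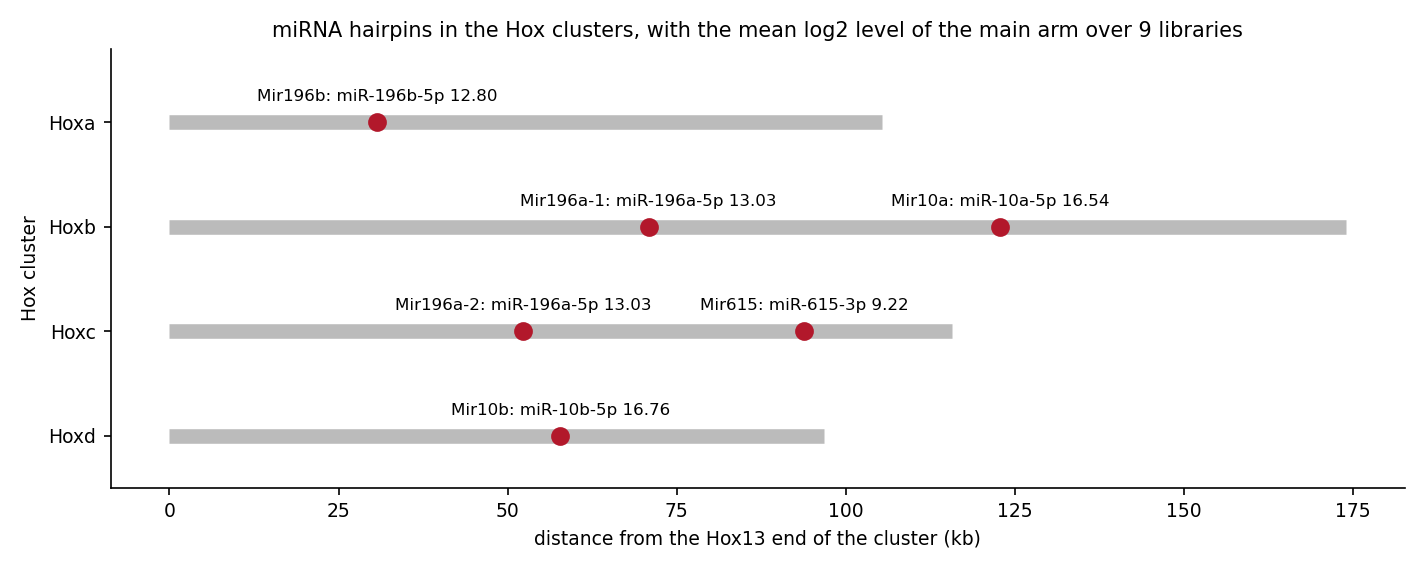
Position of the 6 miRNA hairpins (points) in the 4 Hox clusters (grey bars), as the distance in kb from the Hox13 end, labelled with the mean log2 level of the arm named over 9 libraries. The miR-10 hairpins lie 122.8 kb (Hoxb) and 57.8 kb (Hoxd) from that end and give the highest levels, 16.54 and 16.76. Mir615 in the Hoxc cluster lies between these distances, at 93.8 kb, and miR-615-3p is at 9.22.

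Both hairpins of the miR-10 family are shown with their arms in capitals, the 5p arm first, because the arms were compared within each mouse.
Mir10a: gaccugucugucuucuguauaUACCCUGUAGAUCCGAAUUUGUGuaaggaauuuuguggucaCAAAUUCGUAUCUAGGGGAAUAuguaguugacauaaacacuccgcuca
Mir10b: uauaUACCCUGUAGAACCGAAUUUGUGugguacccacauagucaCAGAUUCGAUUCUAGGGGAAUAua

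The deposited values are quantile-normalized log2(x + 1) values, called log2 levels below. Each library thereby holds nearly the same set of ranked values, the number of reads is unknown, and abundant miRNAs move in steps between shared ranks. The share of summed abundance (2 to the power of the value, minus 1) taken by the 4 skeletal muscle miRNAs ran from 0.0456% to 1.25% in Homo KO, from 0.298% to 16.8% in Hete KO and from 0.0722% to 8.97% in WT. It was highest in Hete KO replicate 2 and WT replicates 1 and 2, called the muscle-rich libraries below, and miR-206-3p alone of these 4 was at the lowest value of a library. The endothelial markers miR-126a-3p and miR-126a-5p were present in all 9 libraries, at 3.06% to 3.35% in Homo KO, 2.1% to 3.28% in Hete KO and 3.43% to 4.52% in WT. The 4 leukocyte markers, miR-142a-3p among them, took 0.292% to 0.372% in Homo KO, 0.192% to 0.269% in Hete KO and 0.211% to 0.263% in WT. The 3 erythroid markers, miR-144-3p among them, took 0.125% to 0.171%, 0.0674% to 0.169% and 0.172% to 0.272% in the same order. For the mural, neural and liver markers the ranges of the genotypes overlapped. The 6 epithelial markers together stayed at or under 0.035%. Only mature miRNAs were measured, so the loss of AGO1 was not checked here.

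The Hox-cluster miRNAs were present in all 9 libraries at very different levels, and their order was the same in all 9. The highest was miR-10b-5p, which had rank 13 of the 860 by its mean log2 level of 16.76, followed by miR-10a-5p (16.54, rank 14). After these came miR-196a-5p (13.03, rank 56) and miR-196b-5p (12.80, rank 63), then miR-615-3p (9.22, rank 158), miR-10b-3p (8.77, rank 174) and miR-10a-3p (8.39, rank 188). Adapter ligation favours some small RNA sequences over others, and its part in these levels was not tested. Neighbours in the order were separated by a mean log2 difference of at least 0.22, and each difference was larger than its SD over the 9 libraries, the closest case being miR-10b-3p over miR-10a-3p (0.38 ± 0.26, SD, n = 9). Together the 7 made up 2.82% to 3.57% of the summed abundance, of which the miR-10 guide strands held 2.51% to 3.28%.

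miR-10b-5p, the guide strand from the HoxD cluster, had a log2 level of 16.84 in all 3 Homo KO mice, of 16.84, 16.52 and 16.84 in Hete KO mice and of 16.64, 16.64 and 16.84 in WT mice. The lowest value was that of Hete KO replicate 2, and each genotype reached the same highest step, so the groups overlapped. All values under 16.84 were those of the muscle-rich libraries. miR-10a-5p, the guide strand from the HoxB cluster, had a log2 level of 16.64 in all 3 Homo KO mice, of 16.52, 16.17 and 16.52 in Hete KO mice and of 16.52, 16.52 and 16.64 in WT mice. Here the Homo KO values lay above those of Hete KO without overlap and shared a value with WT. With the same seed in both, the abundance that carries it was the sum of the pair, which was 3.28% of the summed abundance in each Homo KO mouse, 2.95 ± 0.37% in Hete KO and 3.05 ± 0.20% in WT (SD, n = 3 each). In all 3 Homo KO mice miR-10b-5p had rank 13 and miR-10a-5p rank 14. Quantile normalization gives equal ranks nearly equal values, so this equality does not measure how alike the mice were.

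miR-196a-5p had log2 levels of 12.69, 13.24 and 13.24 in Homo KO replicates 1, 2 and 3, of 13.01, 13.35 and 13.24 in Hete KO and of 12.77, 12.69 and 13.06 in WT. Homo KO replicate 1 and WT replicate 2 held the lowest values, Hete KO replicate 2 the highest, and the genotypes overlapped. miR-196b-5p, from the HoxA cluster, had log2 levels of 12.32, 12.96 and 13.01 in Homo KO, of 12.80, 13.12 and 13.01 in Hete KO and of 12.63, 12.53 and 12.87 in WT. Its lowest and highest libraries were Homo KO replicate 1 and Hete KO replicate 2, as for miR-196a-5p. The pair made up 0.236 ± 0.052% of the summed abundance in Homo KO, 0.262 ± 0.030% in Hete KO and 0.209 ± 0.027% in WT (SD, n = 3 each).

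miR-615-3p, from an intron of Hoxc5, had log2 levels of 9.19, 9.35 and 9.35 in Homo KO, of 9.33, 9.19 and 9.37 in Hete KO and of 9.01, 8.89 and 9.32 in WT. The lower values were those of the muscle-rich WT replicates 1 and 2, and WT replicate 3 lay within the range of both knockout genotypes. The part of muscle RNA in this was not tested beyond the fits described below. miR-10b-3p, the 3p arm that is mostly discarded when the guide is loaded, had log2 levels of 8.67, 8.69 and 8.57 in Homo KO, of 8.82, 8.64 and 8.95 in Hete KO and of 8.84, 8.64 and 9.05 in WT. miR-10a-3p, the same arm of the HoxB hairpin, had log2 levels of 8.48, 8.53 and 8.45 in Homo KO, of 7.95, 8.34 and 8.53 in Hete KO and of 8.42, 8.46 and 8.35 in WT. For both 3p arms the 3 genotypes overlapped, and Hete KO replicate 1 was the lowest library of miR-10a-3p.

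**Figure D2:**
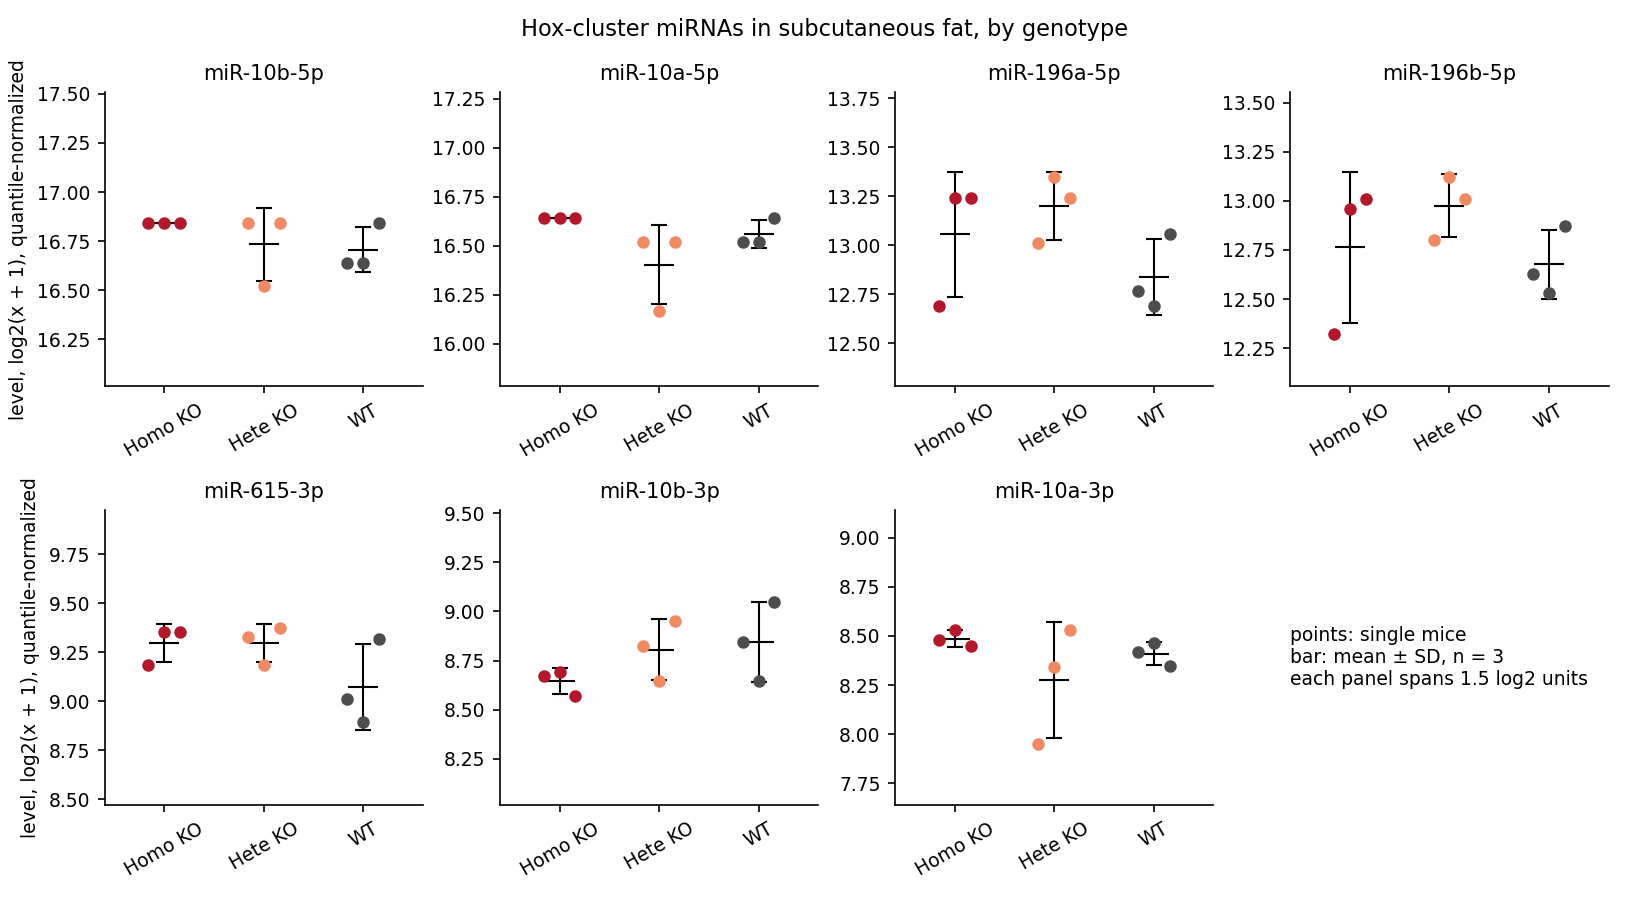
Level of each of the 7 Hox-cluster miRNAs (log2(x + 1), quantile-normalized) in Homo KO, Hete KO and WT mice. Points are single mice and bars the mean ± SD (n = 3). Every panel spans 1.5 log2 units, and in most panels the genotypes overlap, while miR-10a-5p sits at 16.64 in all 3 Homo KO mice and at 16.17 to 16.52 in Hete KO.

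The comparison of Homo KO with WT asks whether loss of endothelial AGO1 goes with different levels of these miRNAs in fat. None of the 7 passed the test (limma across the 489 miRNAs that passed the filter on low values, with Benjamini-Hochberg adjustment), where 3.27% of all tested miRNAs were called. All 7 had passed the filter, with adjusted p between 0.389 and 0.79, and 0 of 7 had an unadjusted p under 0.05, against 23.9% of all tested. The log2 fold changes ran from -0.20 ± 0.15 for miR-10b-3p to 0.22 ± 0.15 for miR-615-3p (SE), 6 were positive, and their median was 0.09 against 0.07 over all tested. Single WT mice moved both ends of that range by over 1.5 times. Without WT replicate 3 the log2 fold change was -0.10 for miR-10b-3p and 0.35 for miR-615-3p, and without WT replicate 2 it was -0.30 for miR-10b-3p and 0.14 for miR-615-3p. The fold change was 0.13 on the log2 scale for miR-10b-5p (95% interval -0.13 to 0.39) and 0.08 for miR-10a-5p (-0.18 to 0.34). Both moved with a covariate. With each library's number of miRNAs at its lowest value as the covariate they were 0.29 for miR-10b-5p (-0.01 to 0.59) and 0.24 for miR-10a-5p (-0.06 to 0.54), and with the mean of the 4 muscle miRNAs as the covariate 0.03 and -0.01. The intervals of the miR-196 guide strands were wider, from -0.20 to 0.62 for miR-196a-5p and from -0.36 to 0.53 for miR-196b-5p. For 0 of the 7 did the 3 Homo KO values lie apart from the 3 WT values, where 32.7% of all tested miRNAs had no overlap.

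Hete KO against WT gave the same count, 0 of 7, where 0.409% of all tested miRNAs were called, and again 0 of 7 had an unadjusted p under 0.05, against 15.7% of all tested. The highest fold changes were those of the miR-196 pair. miR-196a-5p had a mean log2 level of 13.20 ± 0.17 in Hete KO and 12.84 ± 0.19 in WT (SD, n = 3 each). Its log2 fold change was 0.35 (95% interval -0.05 to 0.76, limma adjusted p = 0.373), and that of miR-196b-5p was 0.30 (-0.14 to 0.75). Without the 3 muscle-rich libraries, which leaves a single WT mouse, these fold changes were 0.06 and 0.04. miR-10a-5p had a log2 fold change of -0.16 (-0.42 to 0.11), which was -0.04 without Hete KO replicate 2, and miR-10b-5p of 0.03 (-0.23 to 0.29). The median over the 7 was 0.03, with 4 positive and 3 negative, against -0.02 over all tested, and groups without overlap were found in 0 of 7, against 17.2% of all tested.

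Homo KO was set against Hete KO to compare the knockout genotypes with each other. Here 0 of the 489 tested miRNAs were called by limma, 0%, and 41 had an unadjusted p under 0.05, which is 8.38%, with 0 of the 7 among them. miR-10a-5p was the 1 member without overlap, with a log2 fold change of 0.24 (95% interval -0.03 to 0.50, adjusted p = 0.648), where 12.3% of all tested miRNAs had no overlap. Without the 3 muscle-rich libraries the log2 fold change of miR-10a-5p was 0.12, and in Hete KO against WT it was -0.12. In the 6 libraries that then remain its values sat on 2 steps, 16.52 in Hete KO and 16.64 in Homo KO and WT. Mice of a genotype did not differ, so the calls that this fit gave for miR-10a-5p measure no spread between mice. miR-196b-5p had a log2 fold change of -0.22 (-0.66 to 0.23) and miR-615-3p of 0.00 (-0.33 to 0.33). A moderated F-test over the 3 genotypes called 0 of the 7, where 1.23% of all tested miRNAs were called, with a smallest adjusted p of 0.438, that of miR-10a-5p, and a smallest unadjusted p of 0.175, where 18.8% of all tested had one under 0.05. The 3 comparisons share their mice, so they are not independent of each other.

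**Figure D3:**
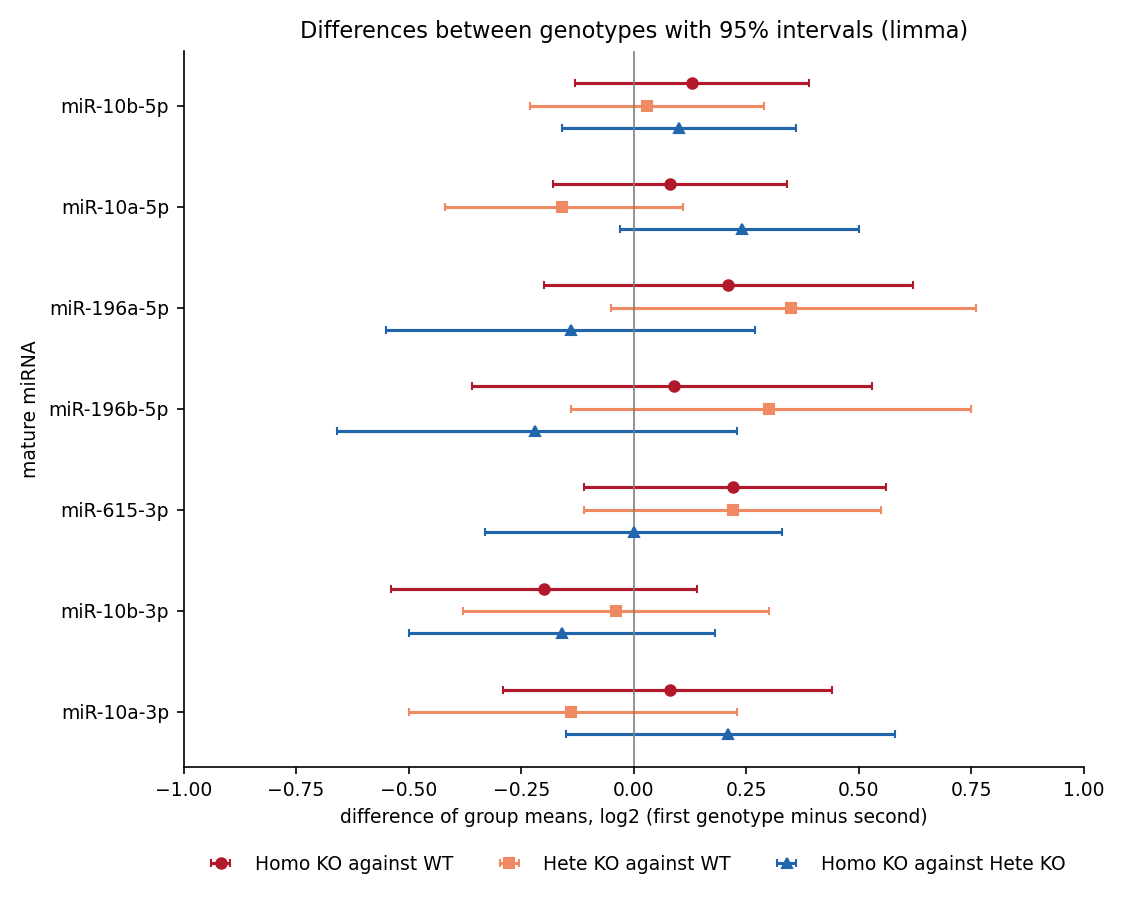
Differences of group means (log2) for the 7 Hox-cluster miRNAs in the 3 comparisons, with 95% intervals from limma. All 21 intervals include 0, and they reach from -0.66 to 0.76.

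Each member varied less between mice of a genotype than the median tested miRNA. Their within-genotype SD on the log2 scale was 0.12 for both miR-10 guide strands, 0.15 for miR-615-3p and miR-10b-3p, 0.18 for miR-10a-3p, 0.23 for miR-196a-5p and 0.26 for miR-196b-5p, with a median of 0.15 against 0.30 over all 489 tested. Of all tested miRNAs, 5.52% had a smaller SD than miR-10b-5p and 9.61% a smaller one than miR-615-3p. For the miR-196 pair the share was larger, 33.1% for miR-196a-5p and 41.7% for miR-196b-5p. A small SD was also found outside the Hox clusters. The share was 3.27% for miR-99a-5p and 4.7% for miR-100-5p, but 46.4% for miR-99b-5p. The spread also depends on level in such values, since abundant miRNAs have few ranks to move between, and its part in these SDs was not tested.

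In the quantile-normalized values of each mouse the 5p arm of miR-10a was 228 to 382 times its 3p arm. For miR-10b the 5p arm was 221 to 309 times its 3p arm. These are ratios of values set by rank, and ratios of reads are unknown. For miR-10b the log2 difference of 5p minus 3p was 8.16, 8.14 and 8.27 in Homo KO mice, 8.01, 7.88 and 7.88 in Hete KO mice and 7.80, 8.00 and 7.79 in WT mice. All 3 Homo KO mice lay above the other 6. The difference of means between Homo KO and WT was 0.33, with a two-sided exact permutation p of 0.1, the smallest that 3 mice against 3 can give. In a limma fit over the 141 hairpins with both arms tested, added after the data were seen, this difference of 0.33 had a 95% interval of -0.07 to 0.73 and an adjusted p of 0.451, 0.709% of hairpins were called, and 20.6% had no overlap between Homo KO and WT, with 11.3% between Homo KO and Hete KO. It was 0.40 without the muscle-rich libraries. For miR-10a, the log2 difference of 5p minus 3p was 8.16 ± 0.04 in Homo KO, 8.13 ± 0.39 in Hete KO and 8.15 ± 0.13 in WT (SD, n = 3 each), and Homo KO and WT overlapped.

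The guide strands of each pair had similar levels within a mouse, and in both pairs some genotypes did not overlap in the difference between them. miR-196a-5p exceeded miR-196b-5p by log2 differences of 0.38, 0.28 and 0.23 in Homo KO mice, of 0.21, 0.22 and 0.23 in Hete KO mice and of 0.15, 0.16 and 0.19 in WT mice. WT values overlapped neither those of Homo KO nor those of Hete KO. Among the 162 pairs of tested miRNAs that share a seed, 29.6% had such a difference without overlap between Homo KO and WT and 27.2% between Hete KO and WT. The difference of means between Homo KO and WT was 0.13 and that between Hete KO and WT was 0.05, each with a two-sided exact permutation p of 0.1, again the smallest that this design allows. As a ratio this is 1.17 to 1.30 in Homo KO and 1.11 to 1.14 in WT. The ranks of miR-196a-5p and miR-196b-5p were 58 and 62, 52 and 56, and 54 and 58 in Hete KO. They were 63 and 67, 65 and 69, and 57 and 61 in WT, the same distance in ranks in each of these mice. The difference of 0.05 is thus the spacing of the shared ranked values. In Homo KO the ranks were 65 and 73, 54 and 59, and 54 and 58. miR-10a-5p was below miR-10b-5p by 0.19 in each Homo KO mouse, by 0.31 to 0.35 in Hete KO mice and by 0.12 to 0.19 in WT mice. Here too the steps between neighbouring ranks set the possible values. The difference of means was -0.18 for Hete KO against WT and 0.13 for Homo KO against Hete KO, each without overlap and with a two-sided exact permutation p of 0.1, and -0.05 for Homo KO against WT (exact permutation p = 0.4). Between Homo KO and Hete KO 11.7% of the 162 pairs had no overlap.

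**Figure D4:**
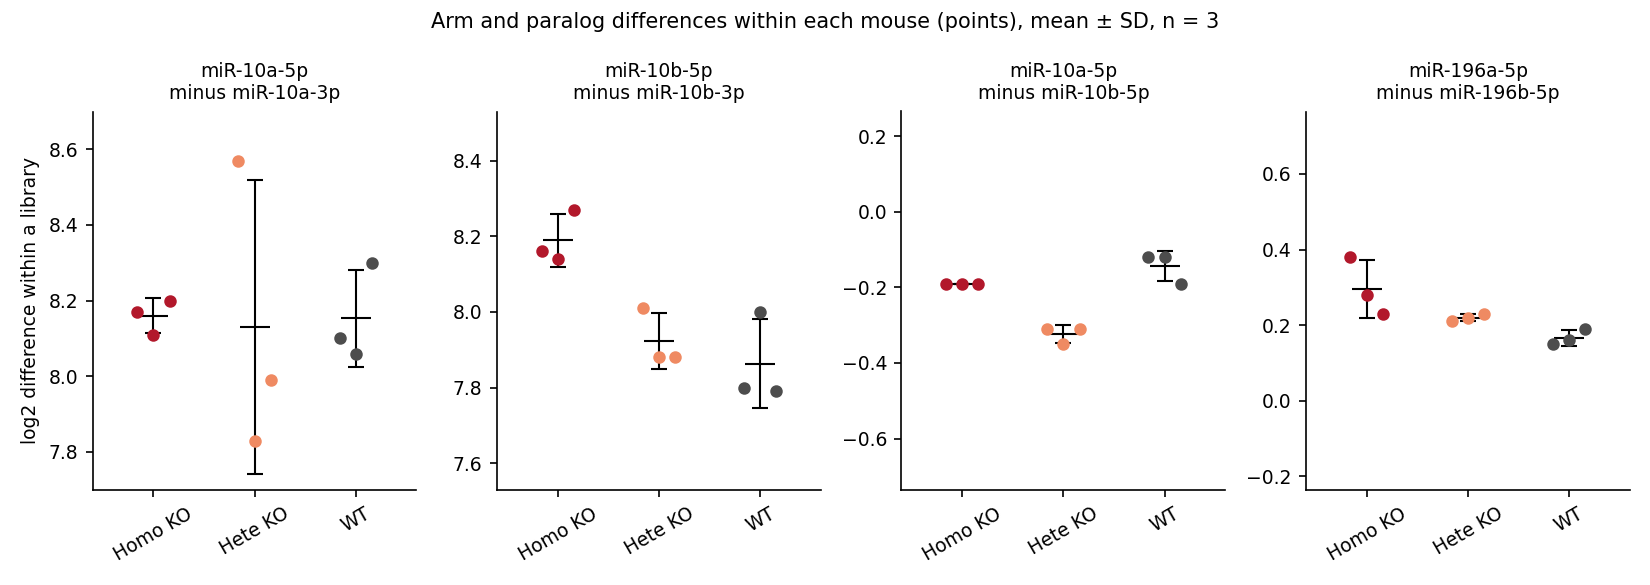
Log2 differences within each mouse between the arms of miR-10a and of miR-10b, and between the paralogs miR-10a-5p and miR-10b-5p and miR-196a-5p and miR-196b-5p. Points are single mice and bars the mean ± SD (n = 3), and every panel spans 1 log2 unit. The miR-10b arm difference is 8.14 to 8.27 in Homo KO and 7.79 to 8.00 in WT.

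Further arms from the Hox clusters were near the lower end of the measured range and did not pass the filter. miR-196a-2-3p, which comes only from the HoxC copy of miR-196a, had log2 levels of 2.52, 3.12 and 1.87 in Homo KO, of 2.56, 4.16 and 2.33 in Hete KO and of 2.88, 2.47 and 3.72 in WT. It was above the lowest value in all 9 libraries, and its highest value was in Hete KO replicate 2, where miR-196a-5p was also highest. Its lowest value, 1.87, was in Homo KO replicate 3, where miR-196a-5p was high, at 13.24. miR-196b-3p, the 3p arm from the HoxA cluster, lay between 1.87 and 2.95 in Homo KO, between 1.37 and 3.36 in Hete KO and between 1.06 and 3.54 in WT. The 3p arm of Mir196a-1 and the 5p arm of Mir615 were not found by name among the 860 mature miRNAs.

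miR-99a-5p, miR-99b-5p and miR-100-5p resemble miR-10 in sequence but lie outside the Hox clusters and have another seed, ACCCGUA in place of ACCCUGU. miR-99a-5p had log2 levels of 15.04, 15.34 and 15.34 in Homo KO, of 15.04, 14.99 and 15.04 in Hete KO and of 14.80, 14.80 and 14.88 in WT. It did not pass in Homo KO against WT, although the groups did not overlap: its log2 fold change was 0.41 ± 0.11 (SE, adjusted p = 0.0656 in limma). There 32.7% of all tested miRNAs had no overlap, miR-100-5p and miR-126a-5p also among them. In the same comparison miR-100-5p had a log2 fold change of 0.29 ± 0.12 (adjusted p = 0.191) and miR-99b-5p of 0.15 ± 0.21 (adjusted p = 0.656). The endothelial arms miR-126a-3p and miR-126a-5p had log2 fold changes of -0.27 ± 0.19 and -0.47 ± 0.14 there (SE, adjusted p = 0.428 and 0.0869).

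Over the 9 libraries the guide strands of a pair followed each other, with a Pearson correlation of 0.97 for miR-196a-5p with miR-196b-5p and of 0.82 for miR-10a-5p with miR-10b-5p, values that come from the same libraries and from sequences that differ at 1 base. The arms of a hairpin correlated at 0.22 for miR-10a and at 0.30 for miR-10b. Outside the Hox clusters the tested miRNAs most like miR-10b-5p were miR-16-5p (0.97), miR-574-3p (0.95) and miR-672-5p (0.89), and those most like miR-10a-5p were miR-467e-3p (0.88), miR-340-5p (0.88) and miR-142a-3p (0.87). miR-10b-5p had a log2 level of 16.84 in every library but the muscle-rich ones. Its correlations, that with miR-10a-5p included, therefore set the muscle-rich libraries against the rest. miR-1843a-3p and miR-124-3p were among the 3 most like both miR-196a-5p (0.93 and 0.90) and miR-196b-5p (0.90 and 0.89), with miR-30c-5p (0.88) for miR-196a-5p and miR-101b-3p (0.90) for miR-196b-5p. The most like miR-615-3p were miR-26a-5p (0.94), let-7e-5p (0.93) and miR-183-5p (0.92). For the 3p arms they were miR-669f-5p (0.91), miR-190a-3p (0.88) and miR-144-3p (0.86) with miR-10a-3p, and miR-668-3p (0.78), miR-199a-3p (0.75) and miR-7688-5p (0.75) with miR-10b-3p. These are the highest correlations among the 489 tested miRNAs over 9 shared libraries and are given as a description only.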

How the data were processed

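Trizol RNA went into TruSeq small RNA libraries (Illumina), per the labels' protocols, and the genome build was mm10, per the submitters' processing notes. The sources used here give no aligner, counting tool, miRNA annotation or normalization. The deposited files hold 1 log2 value per mature miRNA and mouse: the values run to 19.99 in all 9 libraries, and back-transformed values sum to between 6681250 and 6681288, as quantile-normalized log2(x + 1) values would. Depth is unknown, so counting intervals cannot be given. A trace of it is how many miRNAs sit at the floor of a library, its lowest value: 102 to 141 in Homo KO, 101 to 152 in Hete KO and 63 to 104 in WT.

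The filter on low values asked for a mean of at least 3.459, log2(10 + 1), and a value over the floor in 3 or more libraries, which kept 489 of 860 miRNAs. The 3 genotypes were fitted together in limma 3.58.1 under R 4.3.3 (variance trend, all 9 libraries, no covariate), with Benjamini-Hochberg adjustment over all tested miRNAs and a threshold of 0.05. Replicates are individual mice, per the series' design text. Arm and paralog differences were compared by exact permutation tests. The steps were tested on simulated data. Of the 860 names, 698 matched a RefSeq mature sequence. Named miRNAs are the 7 members, the other arms of hairpins inside the Hox clusters, 3 relatives of miR-10, the 3 miRNAs most correlated with each member and the miR-126a arms. Members and lists were chosen with earlier results of these data known.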

Additional observations from a re-analysis of the deposited data

How the results depend on the processing

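Of 441 refits of the members' fold changes (7 miRNAs, 3 comparisons), 412 kept their direction and stayed without a call, 27 changed sign, none of them by more than 0.13 from 0, and 2 became calls, both of miR-10a-5p. The count of members called was 0 in the 3 comparisons under all alternatives and each library left out (0 to 0), except without the 3 muscle-rich libraries, where it was 1 in Hete KO against WT (-0.12) and 1 in Homo KO against Hete KO (0.12). The single WT mouse then left is assumed to vary like the others. For miR-10a-5p all mice of a genotype then had the same value, so these calls measure no spread between mice. Several of the refits could not alter a fold change, only its p-value. They are those with another filter, no variance trend, only the 2 genotypes or the replicate block. Those without a library of the genotype not compared are of this kind too. Their direction was fixed in advance, so the 412 cannot be read as that many checks of direction. In Homo KO against WT the sign changed for miR-10a-5p (-0.01) and miR-196b-5p (-0.06) with the mean of the 4 muscle miRNAs as a covariate, for miR-10a-3p (-0.03) with the count of miRNAs at a library's floor as a covariate, and for miR-196a-5p (-0.00), miR-196b-5p (-0.11) and miR-615-3p (-0.02) without the muscle-rich libraries. In Hete KO against WT it changed for miR-10a-5p (0.00) and miR-10b-3p (0.13) with the floor count as a covariate and for miR-10a-3p (0.00) and miR-10b-3p (0.02) with sample weights. In Homo KO against Hete KO it changed for miR-615-3p with sample weights (-0.02), the muscle covariate (-0.12) and without the muscle-rich libraries (-0.05). Leaving out 1 library at a time gave -0.04 to 0.31 for miR-196b-5p in Homo KO against WT. In Hete KO against WT it gave -0.26 to 0.03 for miR-10a-3p, -0.03 to 0.13 for miR-10b-5p and -0.14 to 0.06 for miR-10b-3p. In Homo KO against Hete KO it gave -0.24 to 0.04 for miR-196a-5p, -0.34 to 0.01 for miR-196b-5p and -0.05 to 0.06 for miR-615-3p. The Homo KO minus WT difference of the miR-10a arms, 0.00, was -0.14 without the muscle-rich libraries and -0.04 to 0.07 with 1 library left out, and that of the miR-10b arms was 0.29 to 0.40. The causes were not tested.

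The background of calls over all 489 miRNAs moved far more. In Homo KO against WT the 16 calls became 9 with no filter, 25 with the stricter filter, 74 with sample weights, 3 with the muscle covariate, 0 with the floor count as a covariate (117 had an unadjusted p under 0.05 in limma without it) and 8 without the muscle-rich libraries. With 1 library left out they were 2 to 25: 2 without Homo KO replicates 1 or 3, 3 without Homo KO replicate 2 or WT replicate 1, 6 without Hete KO replicate 3, 7 without WT replicate 2 and 25 without Hete KO replicate 2. In Hete KO against WT the 2 calls became 10 with the stricter filter, 1 without the variance trend, 34 with sample weights, 1 with only the 2 genotypes, 0 with the floor count as a covariate and 10 without the muscle-rich libraries, and 1 to 24 with 1 library left out (24 without Hete KO replicate 1, 12 without WT replicate 3). In Homo KO against Hete KO there were 4 without the muscle-rich libraries and 0 with any 1 library left out. The replicate block gave 25 calls in Homo KO against WT and 15 in Hete KO against WT, and 0 among the 7 members. To look for pairing, mice of different genotypes were correlated over the tested miRNAs after the genotype mean of each miRNA was subtracted. These are correlations of deviations, not of whole profiles. For same-numbered mice they ran from -0.282 to 0.548, and for differently numbered mice from -0.702 to 0.539. Mice did not all correlate best with their own number. With 3 mice in each genotype, these values cannot show whether replicate numbers pair the mice.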
